A study of Drosophila melanogaster with 12 samples.

Results

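Translation factors are the soluble proteins that start, extend and end the protein chain on the ribosome, and their genes in the fly are named eIF (initiation), eEF (elongation) and eRF (release). The genes described here are those whose FlyBase symbol begins with one of these 3 prefixes. The name table holds 54 such symbols, and 47 of them are among the 11236 genes of the deposited table of head expression in Drosophila melanogaster. The other 7 (eEF1alpha1, eEF5, eIF3g2, eIF4B, eIF4E3, eIF4E4 and eIF4H2) were not matched by identifier and were not analysed here. Of the 11236 identifiers, 10781 had a symbol. Whether any of the 7 is among those without a symbol was not tested.

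The 12 libraries were made from fly heads, 1 for each sex of 6 laboratory populations. Of these populations, 3 had been bred under monogamy and 3 under polygamy for 117 generations, followed by a generation in a common environment. The flies were virgins, were kept with their own sex and were 4 days old. The 4 groups are therefore monogamous males, polygamous males, monogamous females and polygamous females, with 3 libraries in each, and the population is the replicate. The sources used here give neither the number of flies behind a library nor the strain, and the labels name no mutation, transgene or agent in any of the 4 groups.

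In initiation, eIF2 brings the initiator tRNA to the small ribosomal subunit and is recharged with GTP by eIF2B, while eIF3 is the many-subunit scaffold that holds the initiation complex together. The eIF4 factors recognise the capped mRNA: eIF4E binds the cap, eIF4G is the scaffold and eIF4A is the RNA helicase. In elongation, eEF1alpha carries the charged tRNA to the ribosome, eEF1beta, eEF1delta and eEF1gamma form the complex that recharges eEF1alpha, and eEF2 moves the ribosome along the mRNA. The release factor eRF1 reads the stop codon, with eRF3 as its GTPase partner.

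Values are normalised reads, meaning reads per gene divided by 1 factor per library. The libraries held 34558521 to 52282995 reads, and every gene of the table had at least 1 read in every library. Of the 47 translation factors, 45 had a mean of 10 or more normalised reads and were tested. The exceptions were eIF3f2 with 1 to 16 reads and eIF4E7 with 1 to 15 reads per library. Differences are on the log2(value + 1) scale, male minus female or monogamous minus polygamous. They were tested with limma over all 10568 genes that passed the filter and called at a Benjamini-Hochberg adjusted p under 0.05.

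The female library of monogamous population 1 stood apart. Markers of neurons (7 of 8 in the table, elav, nSyb and Syt1 among them) summed to 0.105% of its signal, against 0.345% to 0.425% in the other 5 female libraries and 0.453% to 0.503% in the 6 male libraries. Its long genes were low, with a median of -0.50 on the log2 scale from the other 5 female libraries over the 2533 genes with the longest merged exons. Many of the results that rest on this library are given with and without it. Photoreceptor markers (4 of 5, led by the rhodopsin gene ninaE) took 4.54% to 6.76% of every library, as heads with eyes do. Fat-body markers (7 of 7, the yolk protein genes Yp1, Yp2 and Yp3 among them) summed to 0.257% to 0.373% in males and 2.76% to 6.12% in females. Of the gonad markers, 2 of 7 for ovary and 5 of 11 for testis are in the table, at most 0.00476% and 0.0342% of the signal in any library. As every gene of the table has reads in every library, a marker read in some libraries only could not appear in it. The missing markers therefore do not measure gonad RNA.

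Their levels spanned a wide range. Per kilobase of merged exon, eEF2 had a mean of 46075 normalised reads over the 12 libraries, eIF4A had 30488, eEF1gamma 23558, eEF1alpha2 23518 and eEF1beta 15937. The start-site factor eIF1 followed with 10805, and the eIF3 subunits other than the copies eIF3d2 and eIF3f2 lay between 2632 for eIF3a and 7679 for eIF3l. The cap-binding eIF4E1 had 6127 reads per kilobase, its scaffold eIF4G1 had 1930, the eIF2 subunits 1648 to 3154 and the eIF2B subunits 434.1 to 1296. At the low end, eIF4EHP had 361.8, eIF4G2 had 302.0 and the copies eIF3d2, eIF3f2, eIF4E5 and eIF4E7 had 4.30 to 12.3. Between the groups, eEF1gamma had 13275 reads per kilobase in monogamous males and 14696 in polygamous males, against 36739 in monogamous females and 29523 in polygamous females. It thus stood below eEF1alpha2 in both groups of males and above it in both groups of females, since eEF1alpha2 had 23136 and 25910 in those males, against 22216 and 22812 in those females.

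Across all 6 populations, 19 of the 45 tested translation factors were lower in males than in females and none was higher. Of all genes tested, 29.5% were called, 20.2% higher in males and 9.27% lower. The called factors were 3 of the 4 eEF1 subunits, eEF2, all 3 eIF2 subunits, 9 of 14 tested eIF3 subunits, and eIF4A, eIF2A and eIF6. All 19 were lower in the male than in the female library of the same population in 6 of 6 populations. These are the same values that gave the calls, so this adds no separate support. Here and below, the share of all genes with the same direction in 6 of 6 populations is not given. The median difference was -0.19 over the 45 factors and 0.13 over all genes tested. Because these are bulk heads, fewer cells of a type and less RNA per cell cannot be told apart in any of these differences.

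The genes of cytoplasmic ribosomal proteins moved further and more evenly. Of 76 tested, 75 were lower in males, with a median of -0.79 and a range of -0.93 to -0.59 between the 10th and 90th percentiles. Among the translation factors, 6 lay at or below that 90th percentile and only eEF1gamma and eEF1beta lay below the ribosomal median. On the other side, 39 of the 45 factors lay below the median of all genes. The translation factors together took 1.07% to 1.12% of the signal in males and 1.24% to 1.70% in females, while the ribosomal protein genes took 3.72% to 4.67% in males and 5.99% to 9.48% in females. Without the first monogamous female library the highest female shares were 1.415% for the translation factors and 7.15% for the ribosomal protein genes. The sum of the fat-body markers given above, which includes the yolk protein genes, moved with sex as well. So did the sum of the neuron markers given above, which was higher in males. Single markers can differ from these sums and are not given here. Muscle markers (5 of 6) summed to 0.377% to 0.480% in males and 0.506% to 0.661% in females, and glial markers (6 of 6) to 0.146% to 0.222% in males and 0.126% to 0.135% in females. Testis markers summed to 0.0275% to 0.0342% in males and 0.00353% to 0.0272% in females. The part of these markers in the differences was not tested.

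**Figure D1:**
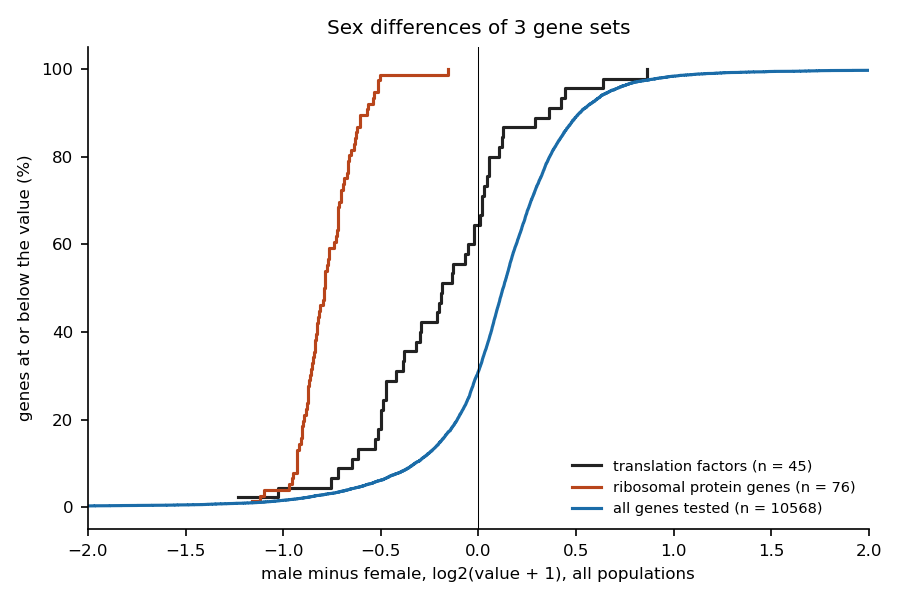
Cumulative share of genes (y axis, percent) by male minus female difference on the log2(value + 1) scale (x axis, shown from -2 to 2) for 45 translation factors, 76 ribosomal protein genes and all 10568 genes tested. The curve of the translation factors spans the gap between the ribosomal protein genes, whose median was -0.79, and all genes, whose median was 0.13.

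Deposited values share 1 total per library, so abundant genes that differ between the sexes shift all others. Rescaling with TMM factors moved the median of all genes to 0.01, a shift of over 0.1 log2 units, and changed the balance of all calls to 835 higher (7.95%) and 1524 lower (14.5%) in males, against 2139 higher and 980 lower with the deposited scaling. All 19 factors stayed called lower, 3 more eIF3 subunits (eIF3a, eIF3f1 and eIF3l) joined them, and the median of the factors became -0.30. With edgeR on the recovered reads 24 factors were lower in males, against 14.8% of all genes, and with DESeq2 25 were, against 15.3%. Among the factors that were not called, eIF4E1, eIF5B, eRF1, eIF1A, eIF3j, eIF4H1 and eIF2Bepsilon changed sign under at least 5 of 18 alternative settings and eIF4E6 under 9 of the 17 that tested it, while eIF4G2, eIF5 and eIF4EHP kept theirs in all 18.

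The elongation factors held the largest differences. eEF1gamma (FBgn0029176) had 22478, 22079 and 22947 normalised reads in monogamous males and 28116, 22887 and 23724 in polygamous males, against 72498, 55714 and 58607 in monogamous females and 57486, 48563 and 44074 in polygamous females. Every male library was below every female library, and the difference was -1.23 (SE 0.10, adjusted p = 2.1e-05 by limma), a male level 0.426 times the female one. Within populations it ranged from -1.69 to -0.89. eEF1beta (FBgn0028737), the nucleotide exchange subunit, had 9524, 9274 and 9904 reads in monogamous males and 11895, 9432 and 9777 in polygamous males, against 28720, 19799 and 21197 in monogamous females and 20829, 17487 and 15758 in polygamous females. Its groups of males and females did not overlap either, and the difference was -1.03 (SE 0.11, adjusted p = 0.00015). eEF1delta (FBgn0032198), the other exchange subunit, had 4469, 4695 and 4691 reads in monogamous males and 6104, 5076 and 4710 in polygamous males, against 7777, 8185 and 9410 in monogamous females and 8699, 8567 and 7392 in polygamous females. The male libraries again lay below all female libraries, at a difference of -0.75 (SE 0.08, adjusted p = 0.00015).

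Of the carrier that these subunits recharge, only the copy eEF1alpha2 was analysed, and it did not share this difference. The carrier as a whole was not tested. eEF1alpha2 (FBgn0000557) had 63510, 62329 and 58510 reads in monogamous males and 67284, 70657 and 68507 in polygamous males, against 67594, 55610 and 53812 in monogamous females and 61125, 59611 and 61032 in polygamous females. The sexes overlapped, and the difference of 0.12 (SE 0.07, adjusted p = 0.22 by limma) did not pass. Without the female library of monogamous population 1 it was 0.18 and called higher in males (adjusted p = 0.0028), with TMM factors in addition it was 0.06 (adjusted p = 0.28), and with all libraries it was -0.02 under upper-quartile rescaling. The ratio of eEF1gamma to eEF1alpha2 reads within a library was 0.324 to 0.418 in males and 0.722 to 1.09 in females. That of eEF1gamma to eEF1beta kept closer, at 2.32 to 2.43 in males and 2.52 to 2.81 in females. The other copy, eEF1alpha1, was not analysed here. How reads that match both copies were counted is not stated, so the value of eEF1alpha2 is uncertain.

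eEF2 (FBgn0000559), the translocase, had 123191, 119953 and 119555 reads in monogamous males and 115216, 105078 and 104364 in polygamous males, against 211768, 171905 and 176340 in monogamous females and 165777, 145308 and 131221 in polygamous females. Males lay below females without overlap, and the difference was -0.53 (SE 0.09, adjusted p = 0.0022 by limma). Its ratio to eEF1alpha2 within a library was 1.49 to 2.04 in males and 2.15 to 3.28 in females. eEFSec, which carries selenocysteine, had 113 to 136 reads in males and 100 to 133 in females and was not called (0.12, adjusted p = 0.34).

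**Figure D2:**
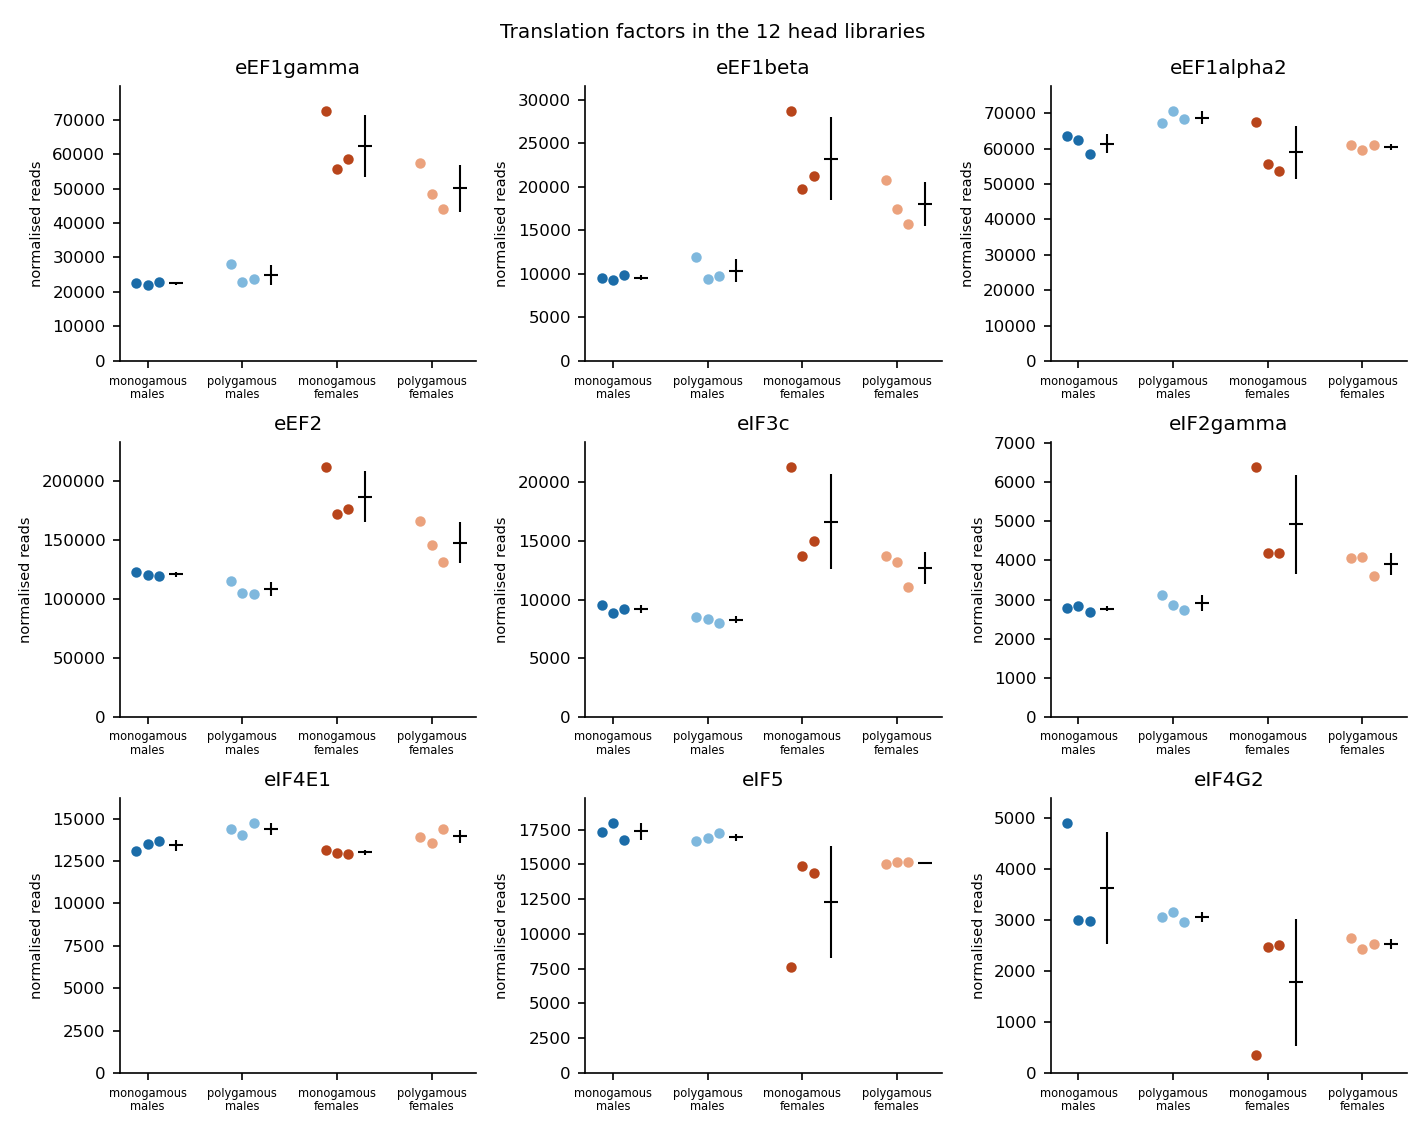
Normalised reads (y axes, from 0) of 9 translation factors in the 12 libraries, each point 1 library, with the group mean and SD (n = 3) as the bar at the right of each group. eEF1gamma, eEF1beta, eEF2, eIF3c and eIF2gamma lie lower in every male library than in every female library, eEF1alpha2 and eIF4E1 overlap, and monogamous female 1 is far below the other libraries in eIF5 and eIF4G2.

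The 3 subunits of eIF2 were all lower in males. eIF2gamma (FBgn0263740), the GTP-binding subunit, had 2786, 2829 and 2691 reads in monogamous males and 3129, 2869 and 2739 in polygamous males, against 6388, 4197 and 4198 in monogamous females and 4062, 4085 and 3595 in polygamous females. These ranges did not overlap, and the difference was -0.61 (SE 0.10, adjusted p = 0.0019 by limma). In the later annotation 16.0% of its exon length is shared with Su(var)3-9 on the same strand, so part of its reads cannot be told apart from that gene. eIF2beta (FBgn0004926) had 2808, 2760 and 2858 reads in monogamous males and 3198, 2988 and 2926 in polygamous males, against 5828, 4021 and 4267 in monogamous females and 4174, 3723 and 3143 in polygamous females. The highest male library passed the lowest female one, and the difference was -0.50 (SE 0.10, adjusted p = 0.0044). eIF2alpha, the subunit whose phosphorylation slows initiation, had 2958 to 3078 reads in males and 3593 to 5926 in females, without overlap, at a difference of -0.47 (SE 0.09, adjusted p = 0.0038). Together the 3 subunits took 0.0186% to 0.0205% of the signal in males and 0.0225% to 0.0395% in females. Without the first monogamous female library the highest female share was 0.0276%.

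By limma with all libraries and no block, none of the 5 subunits of eIF2B was called between the sexes over all populations. DESeq2 called 3 subunits of this exchange factor, which recharges eIF2, lower in males. Their differences ran from -0.19 (eIF2Bdelta) to 0.10 (eIF2Bepsilon), with a median of -0.07, and males and females overlapped for all 5. With DESeq2 on the recovered reads eIF2Balpha was at -0.24 (adjusted p = 0.035), eIF2Bdelta at -0.29 (adjusted p = 0.046) and eIF2Bgamma at -0.17 (adjusted p = 0.044), and edgeR also called eIF2Balpha and eIF2Bgamma lower. eIF2Bdelta was also called in limma with the population as a block (adjusted p = 0.046, against 0.21 without it). Without the female library of monogamous population 1, eIF2Bepsilon was called higher in males, by 0.18, but not with TMM factors in addition (0.06, adjusted p = 0.31). With TMM factors and without that library, limma called eIF2Balpha and eIF2Bgamma lower in males. The summed eIF2B signal was 0.0141% to 0.0159% in males and 0.0138% to 0.0199% in females. Without the first monogamous female library the highest female value was 0.0153%.

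Of the 14 tested subunits of eIF3, 9 were lower in males and none was higher, with a median of -0.34. eIF3c (FBgn0034258), a core subunit, had 9541, 8849 and 9233 reads in monogamous males and 8546, 8373 and 7992 in polygamous males, against 21304, 13680 and 14964 in monogamous females and 13755, 13172 and 11110 in polygamous females. No male library reached a female one, and the difference was -0.72 (SE 0.10, adjusted p = 0.00095 by limma). eIF3b (FBgn0034237), the subunit that binds RNA and the small ribosomal subunit, had 13674, 13222 and 13381 reads in monogamous males and 13076, 12713 and 12448 in polygamous males, against 25373, 19181 and 21572 in monogamous females and 21029, 19556 and 17303 in polygamous females. The sexes were again separate, at a difference of -0.65 (SE 0.08, adjusted p = 0.00028).

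eIF3d1 (FBgn0040227), the homologue of the mammalian subunit that can bind the mRNA cap, had 4859, 4443 and 4707 reads in monogamous males and 4508, 4706 and 4516 in polygamous males, against 9237, 6192 and 6351 in monogamous females and 6103, 6568 and 5678 in polygamous females. eIF3k (FBgn0034654), a small peripheral subunit, had 3872, 3849 and 4009 reads in monogamous males and 4280, 3993 and 4128 in polygamous males, against 8185, 5195 and 5396 in monogamous females and 5556, 5265 and 5040 in polygamous females. Neither gene showed an overlap of the sexes, and the differences were -0.51 for eIF3d1 (SE 0.10, adjusted p = 0.0032) and -0.50 for eIF3k (SE 0.10, adjusted p = 0.0051). The other called subunits were eIF3h (-0.48), eIF3e (-0.42), eIF3m (-0.38), eIF3g1 (-0.30) and eIF3i (-0.29), of which eIF3g1 alone overlapped between the sexes. Some of these calls needed all populations. eIF3g1 was not called without monogamous population 2 or any one of the polygamous populations, eIF3i without any one of the polygamous populations, and eIF3e without polygamous population 1 or 2. In the later annotation 16.8% of the exon length of eIF3h overlaps senju on the opposite strand, and strand use in counting is not stated.

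Among the eIF3 subunits that were not called, eIF3a (-0.21, adjusted p = 0.078 by limma), eIF3l (-0.20, adjusted p = 0.061) and eIF3f1 (-0.19, adjusted p = 0.16) were below 0 and were lower in males in 6 of 6 populations. eIF3a was called with the population as a block (adjusted p = 0.035). Without the first monogamous female library all 3 were called, eIF3a at -0.15 (adjusted p = 0.048), eIF3l at -0.14 (adjusted p = 0.0048) and eIF3f1 at -0.09 (adjusted p = 0.023). Apart from the rest stood eIF3j (FBgn0027619), the loosely bound subunit, with 4412 to 4896 reads in males and 4034 to 4841 in females and a difference of 0.02 (adjusted p = 0.82). Without the first monogamous female library and with TMM factors in addition, eIF3j was called lower in males (adjusted p = 0.023). The ratio of eIF3c to eIF3j reads was accordingly 1.66 to 2.06 in males and 2.30 to 5.28 in females, where the first monogamous library held the 5.28 and the highest of the others was 3.09, whereas that of eIF3c to eIF3b was 0.642 to 0.698 in males and 0.642 to 0.840 in females. The copy eIF3d2 had 4 to 28 reads in males and 1 to 19 in females, and its difference of 0.64 had an SE of 0.59.

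**Figure D3:**
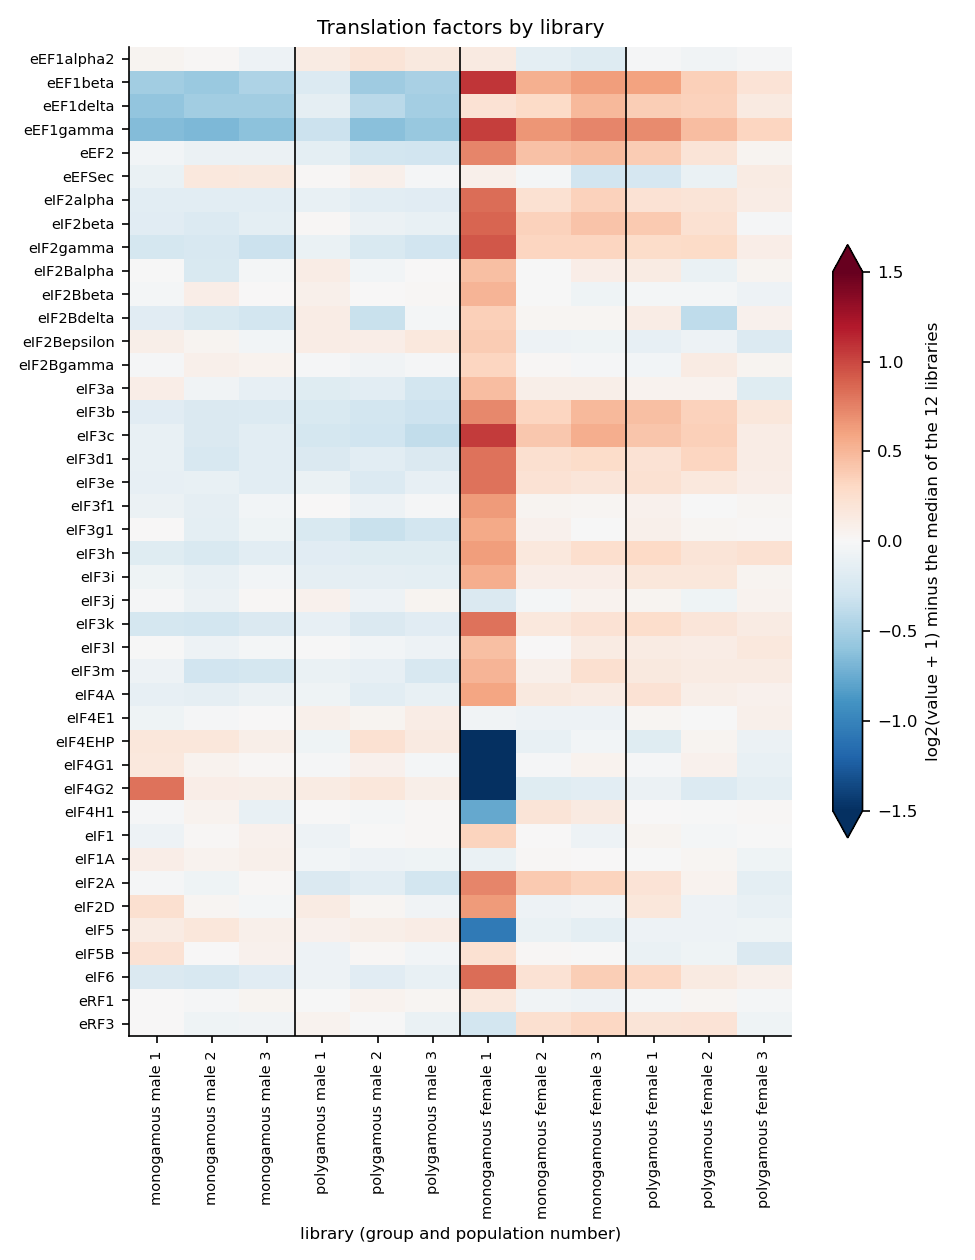
Level of the 42 translation factors with a mean of 100 or more normalised reads (rows, by class) in each library (columns), as log2(value + 1) minus the median of the 12 libraries, with the colour scale limited to -1.5 and 1.5. Rows of eEF1beta, eEF1gamma, eEF1delta, eEF2, eIF2alpha, eIF2gamma and 9 eIF3 subunits are below 0 (blue) in the 6 male columns and above 0 (red) in the 6 female columns, and the column of monogamous female 1 stands out in most rows, blue in eIF4G1, eIF4G2, eIF4EHP and eIF5.

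Of 8 tested eIF4 genes, eIF4A alone was called. The median of the class was 0.17, and 0.05 without the first monogamous female library. eIF4A (FBgn0001942), the helicase, had 66635, 66145 and 68302 reads in monogamous males and 69113, 64743 and 66879 in polygamous males, against 109060, 80009 and 78685 in monogamous females and 84437, 77242 and 76076 in polygamous females. Its sexes did not overlap, and the difference was -0.32 (SE 0.09, adjusted p = 0.025 by limma), but it was not called when any one of the 3 polygamous populations was left out. eIF4E1 (FBgn0015218), the main cap-binding protein, had 13082, 13480 and 13705 reads in monogamous males and 14404, 14024 and 14741 in polygamous males, against 13145, 12960 and 12908 in monogamous females and 13927, 13584 and 14370 in polygamous females. Males and females overlapped at nearly the same level, with a difference of 0.04 (SE 0.04, adjusted p = 0.46).

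The scaffold eIF4G1 (FBgn0023213) had 14682, 13668 and 13309 reads in monogamous males and 13093, 13793 and 12971 in polygamous males, against 4699, 13015 and 13702 in monogamous females and 13074, 13845 and 12200 in polygamous females. Only the first monogamous female library was far from the others, and the difference was 0.29 (SE 0.23, adjusted p = 0.34) with it and 0.04 (adjusted p = 0.44) without it. eIF4G2 (FBgn0260634), a second scaffold known for its need in the male germline, had 4901, 2999 and 2980 reads in monogamous males and 3050, 3153 and 2963 in polygamous males, against 342, 2469 and 2514 in monogamous females and 2638, 2427 and 2526 in polygamous females. Every male library was above every female one, with the first monogamous male library highest and the first monogamous female library lowest, yet the difference of 0.86 had an SE of 0.43 and did not pass (adjusted p = 0.15). Without that female library it was 0.39 and called higher in males (SE 0.12, adjusted p = 0.019). With TMM factors in addition, a choice made after seeing the data, it was not called.

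eIF4EHP (FBgn0053100), which binds the cap and represses translation, had 2692, 2687 and 2553 reads in monogamous males and 2295, 2814 and 2632 in polygamous males, against 815, 2214 and 2324 in monogamous females and 2112, 2471 and 2257 in polygamous females. It was higher in males in 6 of 6 populations, but the sexes overlapped and the difference of 0.44 (SE 0.22, adjusted p = 0.16) did not pass. It became 0.20 (adjusted p = 0.017) without the first monogamous female library, and 0.08 (adjusted p = 0.35) with TMM factors in addition. eIF4H1, which assists the helicase, had 8854 to 9926 reads in males and 5638 to 10975 in females, with a difference of 0.06 (adjusted p = 0.78) that became -0.10 and called lower (adjusted p = 0.033) without that library. The cap-binding copies eIF4E5 (4 to 60 reads in males, 3 to 20 in females) and eIF4E6 (22 to 117 in males, 22 to 204 in females) were not called, with differences of 0.42 (SE 0.55) and 0.01 (SE 0.44).

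Among the remaining initiation factors, eIF6 and eIF2A were lower in males. eIF6, which keeps the large ribosomal subunit from joining early, had 812 to 910 reads in males and 1015 to 1718 in females, without overlap, at a difference of -0.49 (SE 0.10, adjusted p = 0.0041 by limma). eIF2A, an alternative carrier of initiator tRNA, had 8344 to 10238 reads in males and 9128 to 16796 in females, overlapping, at -0.38 (SE 0.08, adjusted p = 0.0071). eIF5, the GTPase activator of eIF2, ran the other way. It had 17348, 17973 and 16779 reads in monogamous males and 16691, 16888 and 17233 in polygamous males, against 7622, 14854 and 14354 in monogamous females and 15042, 15138 and 15178 in polygamous females. All male libraries were above all female libraries, but the difference of 0.36 (SE 0.14, adjusted p = 0.081) did not pass. It was 0.21 (SE 0.03, adjusted p = 0.00027) without the first monogamous female library, and 0.09 and called with TMM factors in addition. In the later annotation eIF5 shares 80.8% of its exon length with CG46312 on the same strand, so its reads are uncertain.

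The start-site factors eIF1 (-0.05, adjusted p = 0.59) and eIF1A (0.03, adjusted p = 0.65), the subunit-joining GTPase eIF5B (0.05, adjusted p = 0.52) and eIF2D (-0.02, adjusted p = 0.90) were not called by limma with all libraries and the deposited scaling. The release factors were not called in that fit either. Without the first monogamous female library and with TMM factors in addition, eIF1 (adjusted p = 0.0275) and eIF1A (adjusted p = 0.016) were called lower in males. eRF1 had 5932 to 6241 reads in males and 5700 to 6691 in females, at 0.02 (SE 0.05, adjusted p = 0.77). eRF3 had 3720 to 4140 reads in males and 3289 to 4956 in females, at -0.13 (SE 0.10, adjusted p = 0.34), and was called lower in males at -0.22 (adjusted p = 0.0064) without the first monogamous female library. The ratio of eRF3 to eRF1 reads was 0.607 to 0.692 in males and 0.492 to 0.869 in females. The first monogamous female library held the 0.492, and the lowest of the other female libraries was 0.652.

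**Figure D4:**
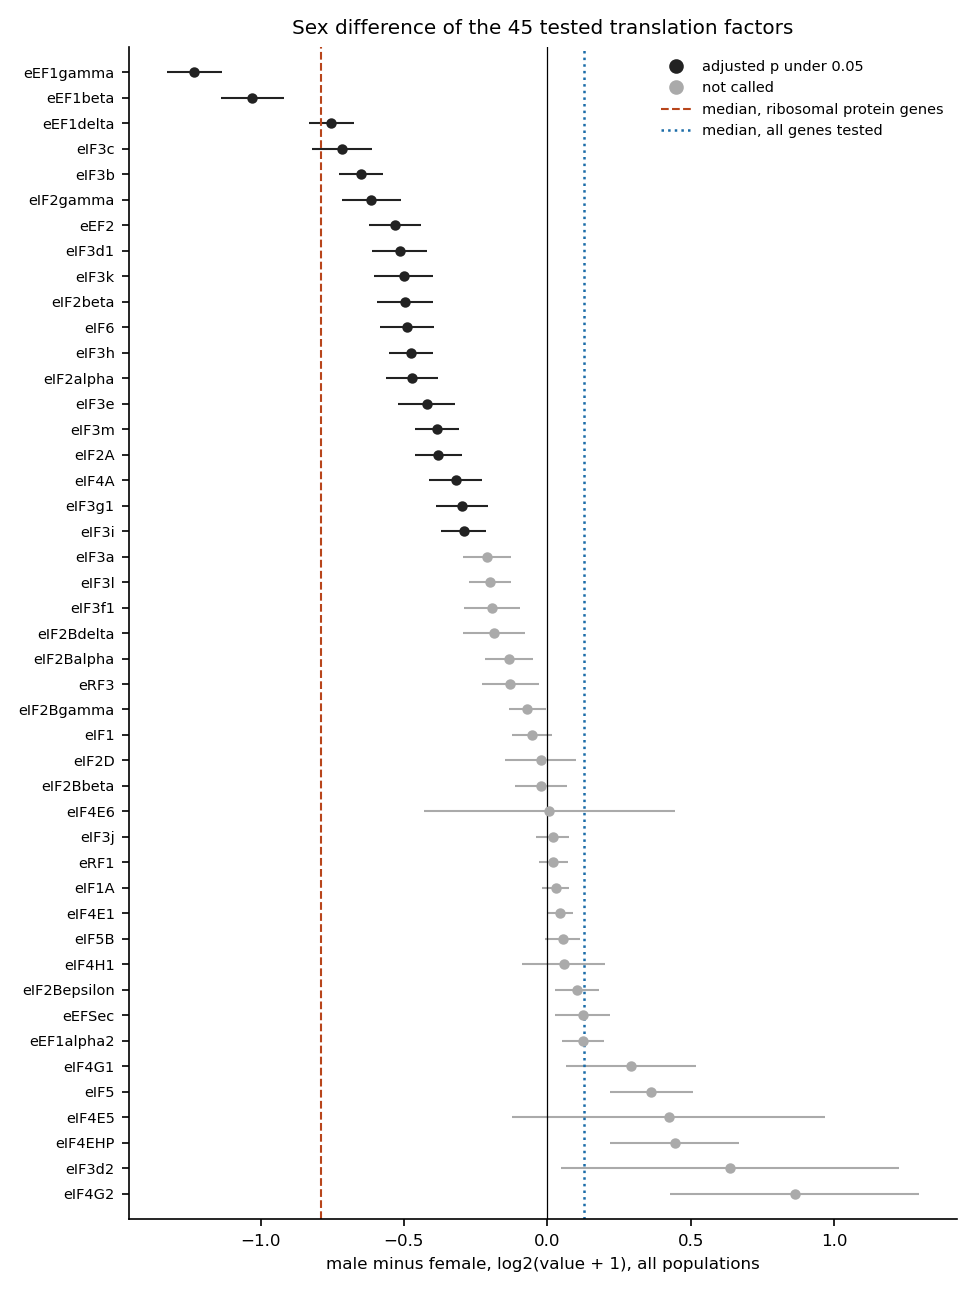
Male minus female difference of the 45 tested translation factors over all 6 populations (x axis, log2(value + 1) scale), with bars for 1 SE, dark where called. The 19 called genes run from -1.23 for eEF1gamma to -0.29 for eIF3i, and the dashed line at -0.79 marks the median of the ribosomal protein genes.

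Separation of the libraries gave a similar picture. For 17 of 45 factors all 6 male libraries were below all 6 female libraries, and for 2 (eIF4G2 and eIF5) they were above. Among all genes tested, 4.99% were separated with males lower and 15.2% with males higher. Of the 19 called factors 16 were separated, the exceptions being eIF2beta, eIF2A and eIF3g1, and eIF3l was separated without being called. In the ribosomal protein genes 74 of 77 were separated.

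Leaving out the first monogamous female library raised the calls to 29 of 45, with 24 lower and 5 higher in males (eEF1alpha2, eIF2Bepsilon, eIF4EHP, eIF4G2 and eIF5), against 4251 higher (40.1%) and 1207 lower (11.4%) of all genes. With TMM factors in addition the calls were 29 lower and 1 higher, against 19.2% and 17.4% of all genes. Of the 5 higher calls above, eIF5 alone was made under both scalings. All 19 factors called with the library were called without it under either scaling. The median difference was -0.13 without it, and the ribosomal protein genes had a median of -0.71.

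In that library the factors with the longest exons deviated furthest from the median of the other 5 female libraries. On the log2(value + 1) scale, eIF4G2 with 9097 bases of merged exon was at -2.87, eIF4G1 with 6565 bases at -1.48 and eIF4EHP with 6418 bases at -1.47, while eIF2D with 1841 bases was at 0.72 and eIF2gamma with 2203 bases at 0.64. Spearman's rho between exon length and this deviation was -0.358 over the 45 factors, which share the same library. For the male minus female difference the rho with exon length was 0.347, and 0.244 without that library, against 0.358 over the 10130 tested genes with an exon length. Exon lengths come from a later annotation than the authors' build. The part of exon length in the sex differences was not tested.

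**Figure D5:**
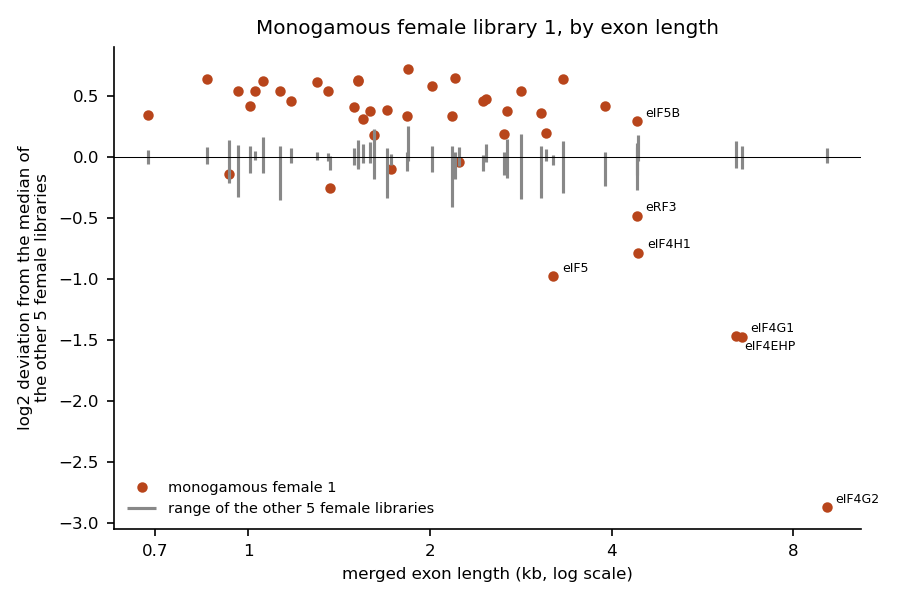
Deviation of monogamous female library 1 from the median of the other 5 female libraries (y axis, log2(value + 1) scale) against merged exon length (x axis, kilobases, log scale) for the translation factors with a mean of 100 or more normalised reads. Grey bars give the range of the other 5 female libraries. The points at the far right are eIF4G2 at -2.87, eIF4G1 at -1.48 and eIF4EHP at -1.47.

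Within mating systems the sex difference had the same direction for the called genes. In monogamous populations 16 of 45 factors were lower in males and none was higher, against 22.1% called among all genes tested, 14.2% higher and 7.93% lower. The 16 were those named above without eIF4A, eIF3g1 and eIF3i, and 75 ribosomal protein genes were lower. Without the first monogamous female library 7 more factors were called in monogamous populations, against 29.2% of all genes higher and 8.74% lower. Of these, eEF1alpha2 (0.17), eIF4G2 (0.50) and eIF5 (0.25) were higher in males, and eIF3i, eIF4A, eIF4H1 and eRF3 were lower. With TMM factors in addition eEF1alpha2, eIF4G2 and eIF5 were not called there. In polygamous populations 6 factors were lower and none was higher (eEF1gamma, eEF1beta, eEF1delta, eIF3b, eIF3c and eIF3h), against 7.77% called among all genes, 4.71% higher and 3.06% lower, and 55 ribosomal protein genes were lower. With the population as a block eIF3h was not called there (adjusted p = 0.064 by limma). Without the first monogamous female library the polygamous count was 20 lower and 3 higher, against 7.36% and 27.1% of all genes. That library is not in the polygamous comparison but enters its pooled spread. With TMM factors in addition the count was 24 lower and none higher, against 10.8% and 7.8%. With the deposited scaling it was 2, 0 and 1 without polygamous populations 1, 2 and 3, against 1.76%, 1.23% and 1.5% of all genes.

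Estimates of the largest sex differences were larger in size in monogamous than in polygamous populations, but no difference between them passed a test. For eEF1gamma the male minus female difference was -1.46 in monogamous and -1.0 in polygamous populations, for eEF1beta -1.26 and -0.80, for eEF1delta -0.87 and -0.64, and for eIF3b -0.71 and -0.59. Without the first monogamous female library the monogamous values were -1.34 for eEF1gamma, -1.10 for eEF1beta, -0.93 for eEF1delta and -0.60 for eIF3b, the last close to its polygamous value. The difference between these differences was tested as the interaction of sex and mating system, and 0 of 45 factors and 0.0% of all genes passed with limma. At an unadjusted p under 0.05 there were 2 of the 45 factors, against 5.45% of all genes. The 4 smallest p-values belonged to eEF1gamma (-0.46, SE 0.19), eIF2beta (-0.46, SE 0.20), eEF1beta (-0.47, SE 0.22) and eIF4E5 (2.33, SE 1.09, at 3 to 60 reads), each with an adjusted p of 0.73. edgeR and DESeq2 on the recovered reads called no factor for the interaction, where DESeq2 called 0.61% of all genes. Without the first monogamous female library the median interaction of the 45 factors was -0.02, against -0.12 with it.

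Between mating systems, no translation factor was called in males with limma, where 0.643% of all genes were, 0.539% higher and 0.104% lower under monogamy. At an unadjusted p under 0.05 there was 1 factor, against 11.5% of all genes, and edgeR and DESeq2 called none of the factors, against 1.08% and 3.8% of all genes. The smallest p belonged to eIF4E6, a cap-binding copy, which had 32, 22 and 29 reads in monogamous males against 117, 85 and 50 in polygamous males. Its groups did not overlap, and the difference was -1.5 (SE 0.62, adjusted p = 0.38). In females the same gene had 32, 22 and 32 reads in monogamous and 204, 90 and 24 in polygamous populations, with overlap. The next were eIF1A (0.14, adjusted p = 0.48), eEF1delta (-0.19, adjusted p = 0.60) and eIF3g1 (0.21, adjusted p = 0.61). eIF1A had 14123, 13673 and 13944 reads in monogamous males, against 12816, 12559 and 12616 in polygamous males. eIF3g1 had 3554, 3199 and 3400 reads in monogamous males, against 3025, 2818 and 2924 in polygamous males. Neither gene overlapped between the groups, and both were called higher under monogamy without the first monogamous female library, against 4.6% of all genes. That library is not in the comparison of males but enters its pooled spread. The adjusted p by limma was then 0.048 for eIF1A and 0.028 for eIF3g1. Libraries of the 2 groups of males were separated for 9 factors with monogamy higher and 7 with monogamy lower, against 13.7% and 18.1% of all genes. The glial markers (6 of 6) summed to 0.199% to 0.222% in monogamous males and 0.146% to 0.158% in polygamous males. Photoreceptor markers took 4.55% to 5.08% in monogamous males and 5.57% to 5.94% in polygamous males, fat-body markers 0.365% to 0.373% in monogamous males and 0.257% to 0.354% in polygamous males, and hemocyte markers (4 of 4) 0.00706% to 0.00838% in monogamous males and 0.00351% to 0.00439% in polygamous males. None of these marker sums overlapped between the groups, and their part in these values was not tested.

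In females no factor and 0.0% of all genes were called between mating systems with limma. At an unadjusted p under 0.05 there were 9 of the 45 factors, against 17.7% of all genes. edgeR called none, and DESeq2 called 2, eIF2A and eEF2, both higher under monogamy, against 2.11% of all genes. Of the 45 factors 32 were above 0, with a median of 0.16, and all 76 tested ribosomal protein genes were above 0, with a median of 0.26. Without monogamous female library 1 these medians were 0.03 and 0.09. eIF2A had 16796, 13181 and 12732 reads in monogamous females, against 11590, 10462 and 9128 in polygamous females. Its groups did not overlap, and the difference was 0.45 (SE 0.12, adjusted p = 0.23). eEF2, given above, also showed no overlap, at 0.34 (SE 0.13, adjusted p = 0.26), and eIF3c (0.37) and eIF2beta (0.34) overlapped, each with an adjusted p of 0.27. Libraries were separated for 7 factors with monogamy higher and 2 with monogamy lower, against 8.9% and 14.7% of all genes. Fat-body markers summed to 4.39% to 6.12% in monogamous females and 2.76% to 3.33% in polygamous females, and hemocyte markers to 0.00493% to 0.00716% in monogamous females and 0.00411% to 0.00488% in polygamous females. Neuron markers summed to 0.105% to 0.365% in monogamous females and 0.375% to 0.425% in polygamous females. Without monogamous female library 1 the lowest monogamous female value was 0.345%. None of these sums overlapped between the groups. The part of these markers in these values was not tested.

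Other genes of the pathway showed sex differences of several sizes. Of the 19 of 23 listed regulators of translation in the table, 3 were higher and 1 was lower in males, where 20.2% of all genes were higher and 9.27% lower. Thor, the eIF4E-binding protein that blocks the cap complex, was lower, with 7767, 7860 and 8036 reads in monogamous males and 8928, 9200 and 8517 in polygamous males, against 16633, 17803 and 16815 in monogamous females and 17696, 20563 and 20491 in polygamous females. Its sexes were far apart in every population, at -1.13 (SE 0.06, adjusted p = 1.1e-06 by limma), while its partner eIF4E1 was not called. The 3 higher ones were PEK, a kinase of eIF2alpha (0.25), PPP1R15, which directs its dephosphorylation (0.26), and Pdcd4, an inhibitor of eIF4A (0.19). These values are given with the deposited scaling and all libraries only. With TMM factors the share of all genes called higher in males was 7.95%.

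The aminoacyl-tRNA synthetases and their partners, which charge tRNAs, had 8 of 22 lower and none higher in males, against 9.27% of all genes lower and 20.2% higher, with a median of -0.21, close to the -0.19 of the translation factors. TyrRS (-0.67), AspRS (-0.34), IleRS (-0.29) and AlaRS (-0.60) had the smallest p-values. Of 7 other factors in the table, pix, a ribosome recycling factor, was lower at -0.70 and MCTS1, a reinitiation factor, at -0.25, while the helicase bel was higher at 0.35. The elongation, initiation and release factors of the mitochondrion had 1 of 9 called, against 29.5% of all genes. It was mEFG1, which was higher in males at 0.22, and the list had a median of 0.01. The values of these lists are likewise given with the deposited scaling and all libraries only.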

How the data were processed

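Messenger RNA from fly heads was sequenced in 12 libraries. Per the labels' protocols, RNAzol was used for extraction and an Illumina kit for mRNA-Seq libraries. The submitters' processing notes name TopHat2, HTSeq, DESeq2 and build BDGP5, without versions or parameters. In the deposited file the unit is a signal for every gene, reads divided by 1 factor per library so that all columns reach nearly the same total, so differences in total RNA cannot be seen and abundant genes that differ shift the others. Dividing by the value of 1 read gave whole reads for 100% of the values checked, within a tolerance of 0.1 reads. On these reads edgeR called 2395 genes and DESeq2 2732 between the sexes. No column was left unused (0).

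Symbols were found for 10781 of 11236 FlyBase identifiers. Exon lengths and overlaps come from a later build, so no coordinates are given. A filter kept genes whose mean over the libraries was at least 10, log2(value + 1) was taken with a pseudocount of 1, and limma 3.58.1 in R 4.3.3 (lmFit, eBayes with trend) was fitted to all 12 libraries with a mean for each group, with Benjamini-Hochberg adjustment over all genes and a threshold of 0.05. edgeR 4.0.16 and DESeq2 1.42.0 on the recovered reads were alternatives. Scripts were tested on simulated data. P-values measure the spread between populations and libraries of a group, pooled over groups.

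The members, gene lists, tests and naming rule were chosen with earlier results of these data known. The rule named the 10 called factors with the largest differences by sex in each direction, the copies of eEF1alpha, eIF4E, eIF4G, eIF4A and eIF4H, the 4 smallest p-values of every other comparison and up to 4 genes of every other list. Other factors that are named were chosen after their values were seen. NAT1 is in 2 lists, and RpS10a was below the filter. Equal numbers within a mating system mark 1 population in the labels, so the sexes are paired; deviations from group means of such pairs had a correlation of 0.0908 to 0.474. Promoter and protein sequences were not used here.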

Additional observations from a re-analysis of the deposited data

How the results depend on the processing

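The calls between the sexes were recomputed under 18 other settings, of which 1 was added after seeing the data. Over all populations, 19 factors were called, against 29.5% of all genes. The count was 29 without the female library of monogamous population 1 (51.5% of all genes). It was 30 when the remaining libraries were also rescaled with TMM factors, the added alternative (36.6%). When each population was left out in turn it was 15 to 29 (16.2% to 49.5%). The 10 factors with the largest differences were called in the same direction in all 18. eIF3g1, eIF3e, eIF3i and eIF4A were each lost without at least 1 population. In monogamous populations 16 were called (22.1% of all genes), 7 more without that female library (then 38.0%), and 13 to 22 without single populations (8.46% to 32.1%). In polygamous populations 6 were called (7.77% of all genes), 23 without that female library (34.5%) and 24 with TMM factors in addition (18.6%). DESeq2 called 16 (9.49%), and 0 to 24 were called without single populations (1.23% to 35.3%). Between mating systems in males 0 were called (0.643% of all genes), but 2 without that female library (8.1%) and 2 with TMM factors in addition (8.31%). These 2 were eIF1A and eIF3g1, both higher. In females 0 were called (0.0% of all genes) and DESeq2 called 2 (eIF2A and eEF2, against 2.72%). That female library is in neither the polygamous nor the male comparison. With the deposited scaling, leaving it out changes their pooled spread and adjustment, not their estimates. The cause of the other changes was not tested. With the replicate block, 21, 17 and 5 factors were called by sex in all, monogamous and polygamous populations. The shares of all genes were 29.7%, 20.5% and 6.47%. In the other comparisons 0 factors were called, and only the calls of eIF3a, eIF2Bdelta and eIF3h changed with the block. Of all genes, DESeq2 called 400 between mating systems in males against 68 by limma, 270 against 0 in females and 63 against 0 for the interaction. No called direction reversed. eIF3d2, eIF4E5 and eIF4E6 had few reads and wide errors.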
